A study of Mus musculus with 12 samples.

Results

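The cAMP response element binding (CREB) factors and their coactivators were described here by the histone variant H2A.Z at their genes in the nucleus accumbens of mice. The group comprised 10 genes, chosen by name: the transcription factors Creb1, Crem, Atf1, Atf2 and Atf4, the acetyltransferases Crebbp and Ep300, and the regulated coactivators Crtc1, Crtc2 and Crtc3. Every peak whose assigned gene was one of these names was taken, at any distance, which gave 25 of 59069 peaks over 4 lists (11 of 24655 in SS, 11 of 23170 in SC, 2 of 6417 in CS and 1 of 4827 in CC). The lists came from chromatin immunoprecipitation and sequencing of accumbens tissue under 4 conditions of 3 samples each, and each condition is represented by 1 list. SS mice received saline and then saline, SC saline and then cocaine (labelled acute), CS cocaine and then saline (labelled withdrawal), and CC cocaine and then cocaine (labelled challenge). Chromatin came from tissue, per the labels' protocol, with no cell type named as sorted, so fewer cells carrying H2A.Z and less H2A.Z per cell cannot be told apart. The labels state no strain, age, dose or interval, and no RNA was measured against which the tissue label could be checked.

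CREB factors bind the cAMP response element (CRE) and are phosphorylated by protein kinase A, calcium-dependent kinases and MAP kinase-activated kinases when dopamine or glutamate receptors are stimulated. Phosphorylated CREB recruits the acetyltransferases encoded by Crebbp and Ep300, while CRTC proteins enter the nucleus when dephosphorylated and bind CREB. In the accumbens the pathway is known for its induction by drugs of abuse. H2A.Z replaces canonical H2A in nucleosomes that flank transcription start sites.

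The design compares a first cocaine exposure (SC), a cocaine history followed by saline (CS) and cocaine after a history (CC) with saline alone (SS). There is 1 list per condition and no value per sample, so no difference between conditions was tested and none has a replicate error. Fold enrichment is the authors' ratio over background for each peak. Because the lists differ in scale, each fold is read by its percentile among the promoter peaks of its own list, where a promoter peak has its middle within 1000 bp of the assigned start site. The SS and SC lists had median widths of 734 and 727 bp and the CS and CC lists of 110 and 107 bp, and their largest q-values were 0.000544 (SS), 0.000572 (SC), 0.0510 (CS) and 0.0625 (CC). The part of this difference between the lists in the results below was not tested.

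H2A.Z stood at the start sites of 9 of the 10 genes by name in SS and in SC, and at all 10 once peaks were matched by position. With a cocaine history 2 members had a peak in CS, Crem and Ep300, and 1, Crem, in CC. By name, 14993 genes had a promoter peak in at least 1 list. The SS list named 13585 of them at such a peak and the SC list 12948. For CS the number was 4320 and for CC 3394. Most genes with a promoter peak were thus present with SS and with SC, and presence there is not read as a trait of the group. All 9 members with a promoter peak in SS had one in SC, where 88.2% of all SS promoter genes did (95% exact binomial interval 87.7 to 88.8%). In CS 1 of the 9 was held, Crem, beside 28.8% of all SS promoter genes (28.1 to 29.6%), a share that would come to 2.59 of 9 genes. In CC it was again 1 of 9, beside 22.7% (22.0 to 23.4%), or 2.04 of 9 genes. Both counts lie within 2 genes of what the background share gives, so they do not set the CREB group apart.

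The other comparisons gave the same members. Of the 9 SC promoter genes of the group, Crem was held in CS (background 29.4%) and in CC (23.3%). Between the lists with a cocaine history, Crem was held and Ep300 was not, against 41.2% of all CS promoter genes held in CC. The comparisons with SS share that list, so their counts are not independent of each other.

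Matching by name hid the strongest site of the group. The histone acetyltransferase gene Ep300 had no peak of its own name in SS or SC, yet a strong peak lay within 1000 bp of its start in both, assigned by the authors to Gm23880, a microRNA gene inside that peak. The SS peak spanned chromosome 15, 81585467 to 81586398, from 70 to 1001 bp downstream of the Ep300 start at 81585397, with a fold enrichment of 11.2, at percentile 94.3 of SS promoter peaks. The SC peak (81585391 to 81586474) began 6 bp upstream of that start and had a fold of 11.6, at percentile 82.0. The CS peak, named Ep300, was 116 bp wide (81585657 to 81585773) and lay inside the SS and SC peaks. Its fold was 4.02, at percentile 13.6 of CS promoter peaks, and its q-value was 0.0154. All these distances are from the start that the lists give. RefSeq gives an Ep300 start at 81586214, which the SS and SC peaks both covered. The CS peak lay upstream of that RefSeq start, so its side depends on the start used. No CC peak overlapped the site. The name Ep300 in CS alone therefore marks a site that also carried H2A.Z in SS and SC. Ep300 was not unusual in this: of the 406 genes named at a CS promoter peak but at no SS one, 358 (88.2%) had their CS peak on an SS peak.

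With any peak within 1000 bp of a listed start site counted, whatever its assigned name, 10 of 10 members were held from SS in SC, where 92.2% of all genes were. By the same matching 2 of 10 were held in CS (background 33.2%) and 1 of 10 in CC (26.2%). From SC, 2 of 10 were held in CS (34.1%) and 1 of 10 in CC (27%), and from CS, 1 of 2 was held in CC (44.8%). This matching was chosen after the peaks at Ep300 were seen.

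**Figure D1:**
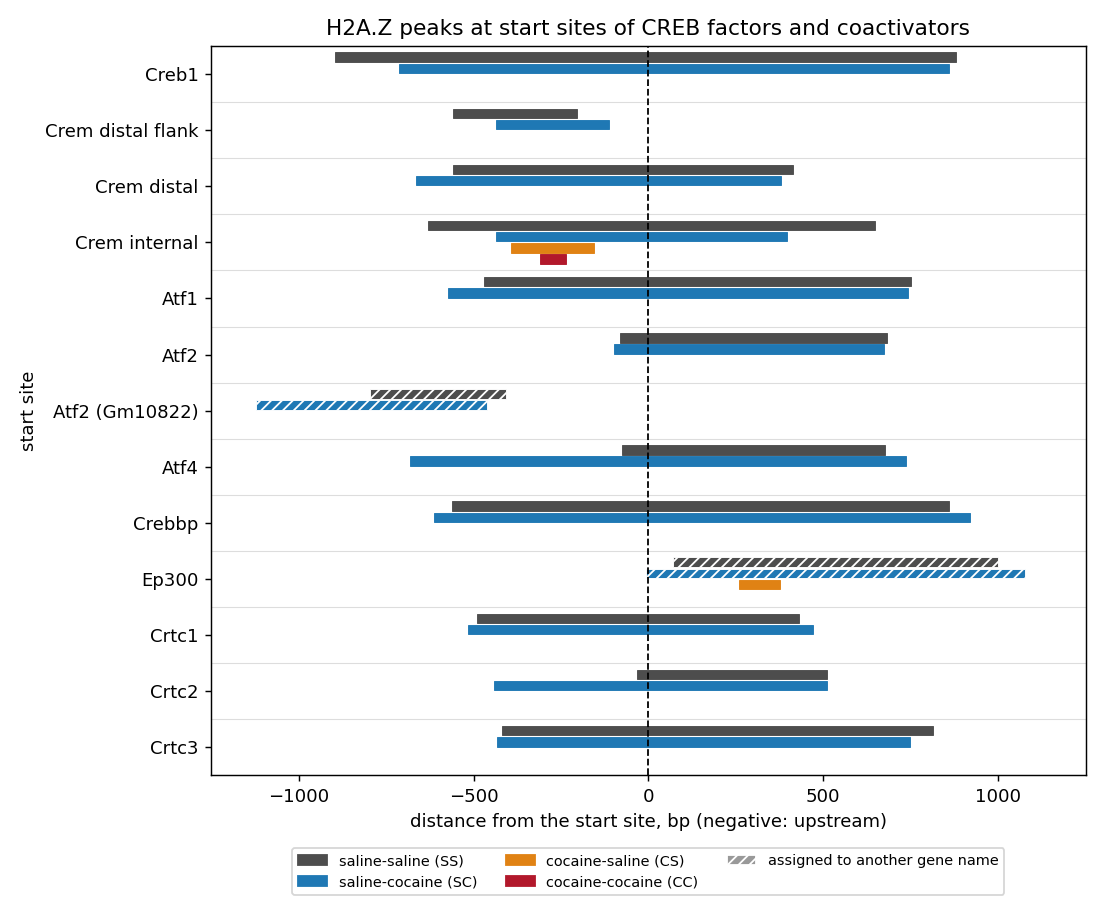
Peaks at the start sites of the 10 genes. Each bar spans 1 peak in bp from the start site given in the lists (x axis, negative upstream), in 1 row per start site and 1 colour per list. Hatched bars are peaks assigned to another gene name. SS and SC bars are present at every row, CS bars at the internal Crem start and Ep300, and a CC bar at the internal Crem start alone.

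Crem encodes activators and repressors that bind the same element as CREB, and it is known for an internal promoter that drives the short repressor ICER. It was the only member with more than 1 peak of its name in a list, and the only member present in all 4 lists, as were 1586 of 14993 genes with a promoter peak in any list (10.6%). In SS a start site near the gene's 5′ end, called distal here (chromosome 18, start 3337063), carried a peak of 971 bp with a fold of 8.49 (percentile 76.1). In SC the distal peak was 1043 bp wide with a fold of 10.7 (percentile 76.3). An upstream flanking peak, assigned to the start at 3337748, was weak in both: a fold of 2.66 at percentile 1.26 in SS and 2.40 at percentile 0.408 in SC. Neither of these distal peaks had an overlapping peak in CS or CC.

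The Crem peak found in CS and CC stood at another start site, 55931 bp further into the gene (internal start, 3281132). There the SS peak was broad and weak: 1277 bp wide (3280484 to 3281761), with a fold of 3.73 at percentile 18.0. The SC peak was 831 bp wide (3280737 to 3281568), with a fold of 4.92 at percentile 35.2. In CS the peak measured 237 bp (3281288 to 3281525), with a fold of 4.52, a percentile of 40.0 and a q-value of 0.000558. In CC it measured 74 bp (3281369 to 3281443), with a fold of 5.42, a percentile of 79.3 and a q-value of 1.61e-05. The CC peak lay inside the CS peak, the CS peak inside the SC peak and the SC peak inside the SS peak, and the middles of the CS and CC peaks both lay 274 bp upstream of the internal start, while those of SS and SC lay 10 bp downstream and 20 bp upstream of it. Among all promoter peaks, 25.4% of CS and 24.2% of CC middles lay 200 to 500 bp upstream of a start, against 7.92% in SS. At 200 to 500 bp downstream the shares were 21.1% in CS, 22.6% in CC and 16.2% in SS. Whether the internal start site is the ICER promoter was not tested.

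At Crem the stronger start site of SS was thus without a peak in CS and CC and the weaker one had one. Among 571 genes with SS promoter peaks at start sites at least 10000 bp apart, the weaker site alone was overlapped in CS in 56 (9.81%) and the stronger alone in 94 (16.5%). In CC the weaker alone was overlapped in 40 genes (7.01%) and the stronger alone in 100 (17.5%). In both lists Crem is of the class with the weaker site alone, the less frequent of these. Most of the 571 genes had neither site overlapped, 388 in CS and 415 in CC. Both sites were overlapped in 33 genes in CS and 16 in CC, fewer than in the class of Crem. The genes with the same presence in all 4 lists and the most similar ranks of their strongest promoter peak were Klhl42, whose percentile among genes differed from that of Crem by at most 3.76 points in any list, and Gnpda1, which differed by at most 6.27. The Crem ranks used here are those of the distal start in SS and SC and of the internal start in CS and CC. They do not describe a single Crem site.

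**Figure D2:**
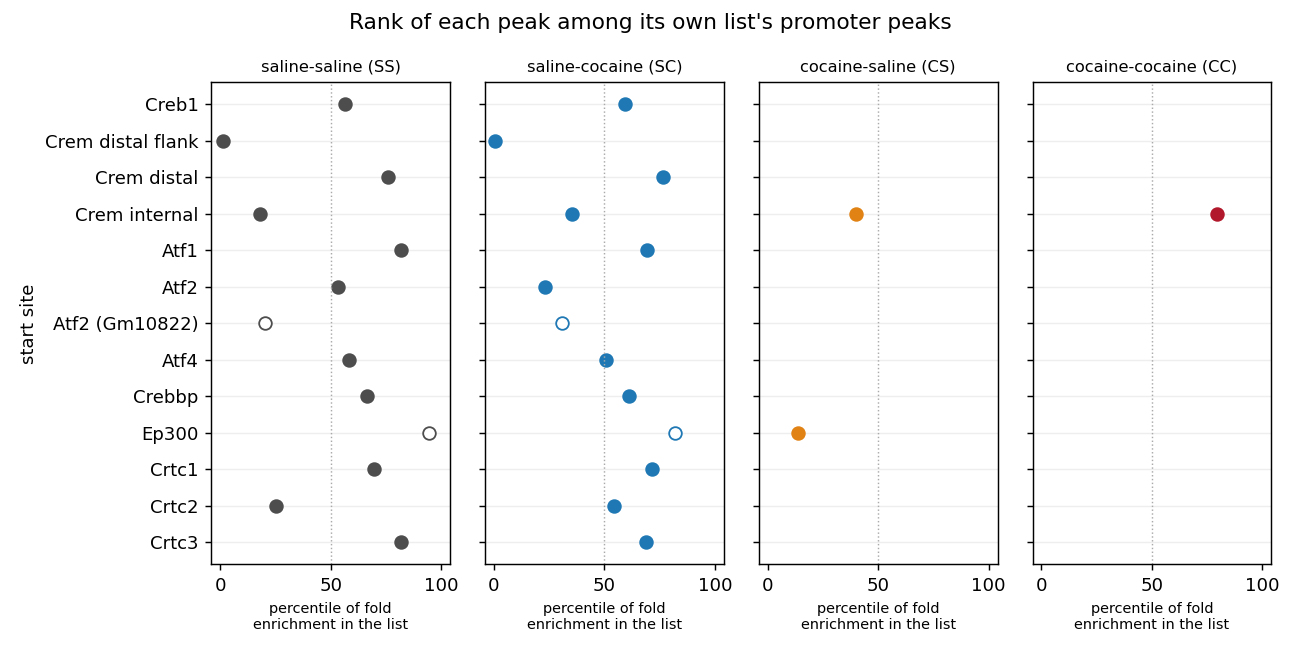
Percentile of fold enrichment (x axis) of each peak among the promoter peaks of its own list, by start site (rows) and list (panels); open circles are peaks assigned to another gene name and the dotted line marks the list's median. The SS and SC peaks run from the flanking Crem peak at percentiles 1.26 and 0.408 to the Ep300 site at 94.3 and 82.0.

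The remaining transcription factors had H2A.Z peaks in SS and SC and in neither list with a cocaine history. By name, 6930 of the 14993 genes with a promoter peak in any list (46.2%) had this same presence, the most frequent of all. A peak missing from a list does not show that H2A.Z was absent there. Creb1, the founding member of the family, carried the widest peak of the group in both lists: 1777 bp in SS (chromosome 1, 64531997 to 64533774; width percentile 99.2) and 1573 bp in SC (64532182 to 64533755; 98.1). Its fold was moderate, 5.77 in SS (percentile 56.5) and 7.38 in SC (59.5), and the peak reached 897 bp upstream and 880 bp downstream of the start at 64532894 in SS.

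Atf1, which with Creb1 and Crem makes up the CREB subfamily, had a fold of 9.26 in SS (percentile 81.7; chromosome 15, 100227400 to 100228622) and 9.55 in SC (percentile 69.1; 100227297 to 100228612). Atf2, which forms dimers with Jun proteins and is a target of stress-activated kinases, was among the weaker sites. Its fold was 5.54 in SS (percentile 53.5; chromosome 2, 73891847 to 73892610) and 4.15 in SC (percentile 23.3; 73891856 to 73892629). Both Atf2 peaks covered the start at 73892530 and lay mainly downstream of it. A second peak, assigned to the divergent non-coding gene Gm10822, lay upstream, with a gap of 326 bp between them in SS and 362 bp in SC.

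Atf4, the effector of the integrated stress response, had similar folds in SS (5.90, percentile 58.2) and SC (6.13, percentile 50.9) but peaks of different extent. In SS the peak measured 753 bp (chromosome 15, 80255109 to 80255862) and began 75 bp upstream of the start at 80255184. In SC it measured 1418 bp (80254502 to 80255920) and began 682 bp upstream. The SC peak overlapped no other SS peak, so the added 607 bp upstream were covered in SC alone. The coactivator gene Crtc2 showed the same form: the upstream edge lay 32 bp from the start in SS and 442 bp from it in SC, a gain of 410 bp, with the downstream edge at 512 and 510 bp.

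Over 10593 start sites with a single promoter peak in each list, the upstream edge moved by a median of -15 bp from SS to SC (negative is nearer the start), with a 95th percentile of 158 bp. Atf4 stood at percentile 99.6 and Crtc2 at 98.9, and these 2 of the 11 start sites of the group lay beyond the 95th percentile. The other 9 changed by between -193 bp (internal Crem start) and 107 bp (distal Crem start). In all, 8 of 11 had an edge further upstream in SC, against 41.5% of all start sites. Without values per sample the spread of an edge between replicates is not known, and the change was not tested.

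**Figure D3:**
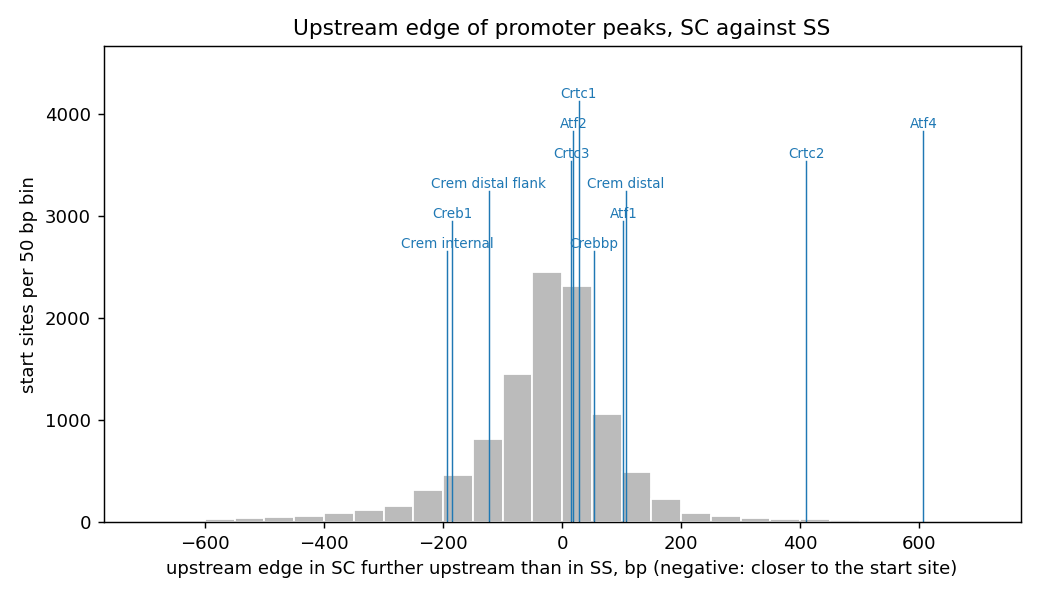
Change of the upstream edge of promoter peaks from SS to SC in bp (x axis, positive is further upstream in SC) for 10593 start sites in bins of 50 bp (grey bars, number of start sites), of which 71 lie outside the plotted range; blue lines mark the 11 start sites of the CREB group. Atf4 at 607 bp and Crtc2 at 410 bp lie in the right tail.

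The coactivators other than Ep300 fell along the same division. Crebbp, the partner acetyltransferase of Ep300, had broad peaks of 1422 bp in SS (chromosome 16, 4213136 to 4214558; width percentile 91.5) and 1535 bp in SC (4213076 to 4214611; 97.6), with folds of 6.95 (percentile 66.4) and 7.74 (60.9). Crtc1, the CRTC member most abundant in neurons, had folds of 7.47 in SS (percentile 69.6; chromosome 8, 70439147 to 70440068) and 10.0 in SC (71.7; 70439109 to 70440096). Crtc3 had 9.26 in SS (percentile 81.7; chromosome 7, 80688062 to 80689295) and 9.48 in SC (68.7; 80688130 to 80689310). Crtc2 was the weakest of the 3, at 4.06 in SS (percentile 25.2; chromosome 3, 90254309 to 90254853) and 6.49 in SC (54.2; 90253899 to 90254851). None of these 4 genes had a peak in CS or CC, and 46.2% of all genes with a promoter peak in any list were likewise in SS and SC alone.

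Within a list the members shared their position. All 25 peaks of the group were promoter peaks by the 1000 bp limit. In SS the farthest middle lay 382 bp from its start and 10 of 11 peaks covered the assigned start site, and in SC these values were 288 bp and 10 of 11. By comparison 20.5% of all assigned SS peaks and 22.5% of assigned SC peaks lay beyond 1000 bp. In each of SS and SC, 8 of the 11 peaks ranked above the median fold of promoter peaks. None of the 3 peaks in CS and CC covered its start site. The median width of all promoter peaks was 111 bp in CS and 108 bp in CC, against 960 bp in SS and 895 bp in SC. The share of all promoter peaks that cover a start was not counted, so these counts are not read as a trait of the group. None of the 3 peaks reached a −log10 q of 5, which 13.7% of CS and 14.8% of CC promoter peaks did. All 11 peaks in SS and all 11 in SC passed it, as did 99.2% and 99.4% of promoter peaks there. The −log10 q of these 3 peaks was 4.79 for Crem in CC, 3.25 for Crem in CS and 1.81 for Ep300 in CS.

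The members were also set beside genes of like SS strength. With SS promoter genes sorted into 5 equal groups by their strongest SS fold, Crtc2 fell in group 1 (weakest), Creb1, Atf2 and Atf4 in group 3, and Crem, Atf1, Crebbp, Crtc1 and Crtc3 in group 4. Ep300 was not sorted, because the SS peak at its site has another name. The fold of that peak, 11.2, lies in the range of group 5 (9.33 to 16.8). Group 3 had the highest share held in CS, 44.6%, and in CC, 34.9%, and its 3 members were held in neither. Group 4 was held at 26.4% in CS and 21.1% in CC, and 1 of its 5 members, Crem, was held, though at its weaker start site and not at the one that placed it there. In group 1 the shares were 10.6% and 7.40%, and its 1 member was held in neither. With 1 to 5 members in a group, these counts do not set the members apart from the shares.

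**Figure D4:**
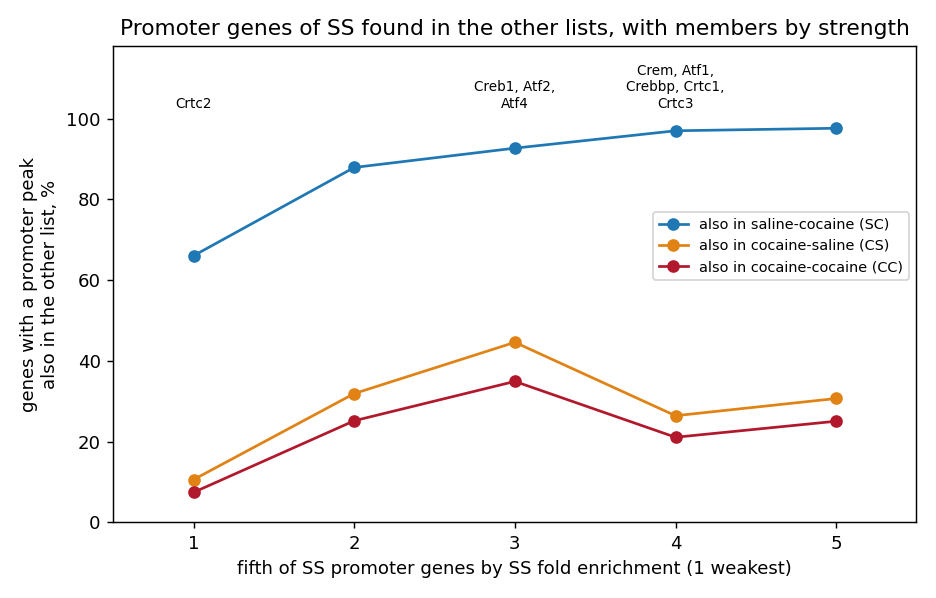
Share of SS promoter genes found again among those of SC, CS or CC (y axis, %), by group of SS fold enrichment (x axis, 1 weakest to 5 strongest). Members are written above their group, Crem by its distal peak. Ep300, with no SS peak of its name, is not shown. The SC line runs from 66.0% to 97.6%, the CS line peaks at 44.6% and the CC line at 34.9%, both in group 3.

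The promoters of 8 members were listed by RefSeq (GRCm38.p6, the assembly also named mm10), each as 250 bases before and 50 after a start, and Crem and Crtc2 were not among them. All 8 were rich in CpG: the observed to expected CpG ratio ran from 0.796 at Ep300 to 1.04 at Crtc1, with a median of 0.905, against 0.739 for genes with an SS promoter peak and 0.384 for all 32851 promoters. The full CRE, TGACGTCA, a palindrome that reads the same on both strands, was in none of the 8 windows and in 1.79% of all promoters. Its core TGACG, searched on both strands and contained in the full element, was in 2 of 8, Atf1 and Atf4, and in 20.8% of all promoters. Among genes with an SS promoter peak the core was in 29.2%, so the CREB group is near that share.

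The stretches before the start are shown for 4 factors whose peaks lie differently over them, in lower case with each TGACG core (or CGTCA, the same core on the other strand) in capitals. They end at the base before the most upstream start known from RefSeq or the lists, and are written 5′ to 3′ on the strand of the gene. Creb1 (chr1:64532554-64532793, plus strand) lies wholly under the widest SS and SC peaks and has no core. Atf1 (chr15:100227609-100227858, plus) is also wholly covered and has 1 core, which begins 90 bases before the start. Atf4 (chr15:80254934-80255183, plus) has 1 core, 12 bases before the start; all 300 bases of its RefSeq window lay under the SC peak and 124 under the SS peak. Atf2 (chr2:73892678-73892889, minus) falls in the gap between the Atf2 and Gm10822 peaks, with 21 of the 300 window bases covered in SS and 40 in SC.
Creb1: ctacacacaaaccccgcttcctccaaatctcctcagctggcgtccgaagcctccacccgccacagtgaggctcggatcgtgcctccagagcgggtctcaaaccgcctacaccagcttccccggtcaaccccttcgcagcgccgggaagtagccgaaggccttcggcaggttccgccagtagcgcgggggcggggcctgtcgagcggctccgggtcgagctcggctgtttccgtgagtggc
Atf1: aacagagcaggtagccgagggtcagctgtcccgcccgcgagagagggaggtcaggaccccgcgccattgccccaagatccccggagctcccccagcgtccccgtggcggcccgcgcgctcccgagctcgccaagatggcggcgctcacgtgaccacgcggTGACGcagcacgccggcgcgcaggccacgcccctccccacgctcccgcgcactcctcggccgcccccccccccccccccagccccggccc
Atf4: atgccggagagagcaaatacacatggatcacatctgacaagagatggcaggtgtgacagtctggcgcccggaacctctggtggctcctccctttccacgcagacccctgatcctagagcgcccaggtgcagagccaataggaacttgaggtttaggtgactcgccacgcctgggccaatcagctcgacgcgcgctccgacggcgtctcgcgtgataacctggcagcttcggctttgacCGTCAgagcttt
Atf2: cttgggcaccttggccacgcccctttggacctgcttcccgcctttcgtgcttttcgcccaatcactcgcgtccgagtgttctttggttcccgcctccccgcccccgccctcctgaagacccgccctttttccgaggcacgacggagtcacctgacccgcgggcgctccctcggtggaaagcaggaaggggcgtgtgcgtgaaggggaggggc
No part of the 8 windows was covered by a CS or CC peak, but the windows of Ep300 and Crebbp sit at other starts (81586214 and 4213404) than those the lists give (81585397 and 4213997), and the Ep300 window does not reach the site of its CS peak. The letters describe these windows only, and no binding of CREB was measured.

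Other genes of the pathway were counted in 6 lists written from general knowledge of it. Their counts are read against all SS promoter genes, of which 88.2% were held in SC, 28.8% in CS and 22.7% in CC. The folds printed for these genes are on the differing scales of SS, SC, CS and CC. They show presence in a list and are not compared between conditions. Of 24 kinase genes that act on CREB, 20 had an SS promoter peak, of which 19 were held in SC, 2 in CS and 2 in CC. Among the strongest was the ribosomal S6 kinase gene Rps6ka2 (10.8 in SS and 13.8 in SC), which also had a CC peak (4.79). Prkacb, a catalytic subunit of protein kinase A, had promoter peaks in all 4 lists (8.12, 8.85, 3.68 and 4.42 in SS, SC, CS and CC).

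Of 16 genes that regulate CRTC proteins, 15 had an SS promoter peak, with 14 held in SC, 1 in CS and 2 in CC. Prkaa2, a catalytic subunit of AMP-activated kinase, had a fold of 10.5 in SS, 11.1 in SC and 4.14 in CC. The salt-inducible kinase gene Sik3 (9.96 in SS) had no promoter peak of its name in the other lists. However, SC and CC peaks under other names lay within 1000 bp of a start site listed for it. The 14-3-3 gene Ywhae had peaks in all 4 lists (5.998, 7.27, 4.35 and 5.08).

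Of 23 related bZIP genes 13 had an SS promoter peak, and 13 were held in SC, 4 in CS and 2 in CC. Crebrf (10.9 in SS) and Cebpg (10.5) were strongest and had no promoter peak in CS or CC. Cebpd (9.82, 12.6, 4.69 and 3.60) and Creb3l2 (4.82, 4.92, 4.79 and 4.98) were in all 4 lists. Of 17 other coactivator and acetyltransferase genes 15 had an SS promoter peak, and 15 were held in SC, 1 in CS and 3 in CC. Cited4 (10.8 in SS) and the acetyltransferase gene Kat6b (10.6) had no promoter peak in CS or CC. Kat5, the acetyltransferase of the TIP60 complex, had one in all 4 lists (5.62, 6.43, 6.36 and 6.39).

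Known CREB target genes had an SS promoter peak in 16 of 23 cases, with 13 held in SC, 1 in CS (Fosb) and 4 in CC (Egr2, Nr4a2, Per2 and Gem). Nr4a2, an orphan nuclear receptor gene, had 10.5 in SS, 14.3 in SC and 4.35 in CC, and the clock gene Per2 had 8.94, 11.4 and 4.64. Of 15 genes of the stress response around Atf4, 11 had an SS promoter peak, and 11 were held in SC, 3 in CS and 2 in CC. Eif2ak3, an eIF2α kinase gene (10.1 in SS), and the amino acid transporter gene Slc3a2 (6.87) had no promoter peak in CS or CC. Eif2ak1, another kinase of that family (4.83, 5.29, 5.02 and 5.08), and Chac1, a glutathione-degrading enzyme gene (4.56, 6.23, 3.79 and 4.93), were in all 4. Of their SS promoter genes, the 6 lists had 81.3 to 100% held in SC, 6.25 to 30.8% in CS and 10 to 25% in CC, and no list was tested against the background.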

How the data were processed

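H2A.Z was profiled by chromatin immunoprecipitation and sequencing in 12 samples, grouped by title into SS, SC, CS and CC with 3 each; H3 was not analysed here. The authors deposited 1 annotated peak list per condition. The submitters' processing notes name cutadapt, HISAT, SAMtools, MACS2 and mm10; versions, settings, control library and any pooling of samples are not given in the sources. The deposited fold enrichment is a ratio per peak and the deposited q-value is linear, per the file headers. The authors' distance equalled the strand-aware peak middle minus the start site within 1 bp for every assigned peak. Starts and ends are printed as listed.

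Rows were matched by exact gene name with Python 3.11.15 and pandas 2.3.3. A promoter peak had its middle within 1000 bp of its start site, a gene was held when both lists had one, and overlap meant at least 1 bp; this counting was tested on simulated data. Percentiles are the share of a list's promoter peaks at or below a value, and intervals are exact Clopper-Pearson at 95%, for counting error only. Depth per sample is unknown, and 1 list per condition allowed no test. Members, lists and rules were chosen with earlier results of these data known. All 10 members are named. Of each pathway list the 2 strongest SS genes and up to 4 genes in both CS and CC are named, except 1 gene that is not reported here; Fosb, Egr2 and Gem were added after their values were seen. For Crem and Ep300 the 2 genes of like presence and rank were sought. Alternatives were windows of 500 and 3000 bp, a −log10 q of at least 5, lists cut to their 4827 strongest peaks, 50% overlap of the shorter peak, a peak middle inside the SS peak, any overlapping peak and, added after seeing the data, matching by position.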

Additional observations from a re-analysis of the deposited data

How the results depend on the processing

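With windows of 500 or 3000 bp, 50% overlap, a peak middle inside the SS peak, or any overlapping peak counted, the counts of members stayed within 1.5 times those reported. When a −log10 q of 5 or more was required, members with a peak, or with a promoter peak, were 0 in CS and 0 in CC, members held were 0 from SS in CS, from SS in CC, from SC in CS, from SC in CC and from CS in CC, and SS peaks of members overlapped were 0 in CS and 0 in CC. Under that limit 4.37% of all SS promoter genes were held in CS and 3.57% in CC. With lists cut to 4827 peaks, members with a peak or promoter peak were 3 in SS (Atf1, Crem, Crtc3), 2 in SC (Crem, Crtc1) and 1 in CS (Crem), 1 of the 3 was held from SS in SC (86.4% of all SS promoter genes; 22.1% in CS and 23.1% in CC), and 1 SS peak of a member was overlapped in SC, 0 in CS and 0 in CC. Crem then counts as held in CS and CC by name although its SS and CS peaks are at different start sites. Fewer peaks enter both of these alternatives. With matching by position, 2 members were held from SS in CS and 2 from SC in CS, since Ep300 is then counted. No paired analysis was possible because each condition has 1 list and the replicate numbers have no values, and no sample could be left out for the same reason.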

Other observations

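The CS fold enrichment of Ep300, 4.02, was shared to the last digit by 339 of the 6417 CS peaks, including 8 other genes with a promoter peak in CS alone by name; Mbd4 and Mesd were among these genes of like presence and rank, at a percentile difference of 0. The folds of Crem were shared by 3 CS peaks and 2 CC peaks, its own included. The folds of the CS list thus take repeated values, and a rank among tied peaks carries little order.

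The promoters of SS genes held in CS had a full CRE in 3.53% of 3715 windows, and those not held in 2.63% of 9053; for the TGACG core the shares were 32.1% and 28.0%. The windows are 300 bases long, their median CpG ratios were 0.764 and 0.725, and the difference was not tested.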
